A study of Mus musculus with 12 samples.

Results

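The proteasome is the large protease that destroys proteins tagged with ubiquitin. Its core particle is a barrel of stacked rings: the alpha rings form the gate, and the beta rings carry the catalytic sites. The regulatory particle caps the barrel; its ATPases unfold the substrate and thread it inside, and its non-ATPase subunits bind ubiquitin chains, cut them off and hold the cap together. Assembly chaperones build both parts, activators can cap the core in place of the regulatory particle, and in mammalian cells the transcription factor Nfe2l1 is known to raise the subunit genes together when proteasome activity is short.

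The proteasome genes were taken as every gene that the array's platform annotation names Psma, Psmb, Psmc, Psmd, Psme, Psmf or Psmg with a number, without Psmb8, Psmb9 and Psmb10, the catalytic subunits induced by interferon. Only probe sets (the groups of probes that report on a transcript) with a single gene symbol were used, so Psme2, whose probe set is shared with Psme2b, is not among them. The rule gave 80 probe sets for 43 of the 12394 genes annotated on the array, and 42 of the 43 had signals strong enough to be tested, in 67 probe sets. Of the tested genes, 14 encode the core (7 alpha and 7 beta subunits), 17 the regulatory particle (6 ATPases and 11 non-ATPase subunits) and 11 other parts. Those 11 are the 7 assembly chaperones, the 3 activators Psme1, Psme3 and Psme4, and the inhibitor Psmf1. Psma8, an alpha subunit known from the testis, was too weak, with signals between 2.9 and 19.8 on the 12 arrays. The rule goes by gene symbol and not by measured values, but it was chosen with earlier results of these data known.

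The cells were primary mouse embryonic fibroblasts, connective tissue cells prepared at embryonic day 13.5 and used at passage 2. The groups were Rb null cells exposed to 16 µM cisplatin, a platinum drug that crosslinks DNA, for 24 h; wildtype cells exposed in the same way; untreated Rb null cells; and untreated wildtype cells. Rb null cells lack the retinoblastoma gene Rb1, whose protein restrains E2F transcription factors. Each group was measured on 3 Affymetrix arrays, 12 in all, and per the design text the 3 arrays of a group carried the same RNA. If so, a p-value here compares hybridizations and leaves out the spread between cultures. The labels state neither strain nor sex, nor how many embryos or cultures stood behind a group. Cisplatin-treated arrays are labelled a to c and untreated arrays 1 to 3.

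Rb1 had a signal of 74 to 102.5 on the cisplatin-treated Rb null arrays and 344.4 to 452.1 on the cisplatin-treated wildtype arrays, and it had 85.3 to 104.9 on the untreated Rb null arrays and 419.9 to 487.5 on the untreated wildtype arrays. The groups were thus as labelled for this gene. Sex-linked transcripts set the untreated wildtype arrays apart. The Y-linked gene Eif2s3y had 469.7 to 485.4 there and 0.5 to 17.8 on the 9 other arrays, and Xist, which is made from the inactive X chromosome, had 115.1 to 162.9 there and 2150.9 to 3760.9 elsewhere. Xist also differed between the cisplatin-treated groups, with 3226.8 to 3760.9 in Rb null cells and 2150.9 to 2506 in wildtype cells (log2 difference 0.53 ± 0.12), and a second Xist probe set was called there (1.04 ± 0.21, limma adjusted p = 0.00102). Comparisons that include the untreated wildtype group therefore also compare cells whose sex-linked transcripts differ, and the part of this in their results was not tested. They are the genotypes without cisplatin, cisplatin in wildtype cells, and the difference of the cisplatin effects. On the cisplatin-treated wildtype arrays Eif2s3y had 0.7, 0.7 and 2.4. Treated and untreated wildtype arrays thus cannot be read as the same cells with and without drug. Drug and source of the cells cannot be told apart there. The comparisons of the cisplatin-treated groups, and of cisplatin with no drug in Rb null cells, take no mean from the untreated wildtype arrays. Without that group in the fit, their counts stayed at 0 higher and 1 lower, and at 3 higher and 1 lower. Such a fit keeps their log2 changes and alters only the shared spread, so the counts do not test the part of the sex-linked transcripts.

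Markers of other cells moved with the groups too. The summed signal of 10 macrophage and leukocyte markers was 4103 to 4221 on cisplatin-treated Rb null arrays, 9309 to 9949 on cisplatin-treated wildtype arrays, 6396 to 6609 on untreated Rb null arrays and 4724 to 5072 on untreated wildtype arrays. That of 8 fibroblast markers was 35950 to 36952, 46233 to 48289, 57118 to 58983 and 59689 to 63499 in the same order of groups. Bright probe sets weigh most in such sums. With cisplatin in Rb null cells 8 of the 10 macrophage and leukocyte markers were lower and 2 higher. Those 2 were Cd68 (mean 409.3, against 157.1 without) and Csf1r (1688, against 1439.8). Lyz2 alone had a mean of 2207.1 in untreated Rb null cells, against 1123.6 in untreated wildtype cells. All 18 of these markers passed the filter on weak signals, so the labelled cell type had its defining markers, as did 2 of 4 epithelial markers (Krt8 and Krt18, not Epcam and Cdh1) and 1 of 3 endothelial markers (Kdr, not Pecam1 and Cdh5). The summed signal of Krt8 and Krt18 was 345.7 to 392 on cisplatin-treated Rb null arrays, 612.1 to 754.2 on cisplatin-treated wildtype arrays, 129 to 192 on untreated Rb null arrays and 235 to 297.6 on untreated wildtype arrays. Krt18, a keratin, rose by 2.13 ± 0.23 with cisplatin in Rb null cells and by 2.31 ± 0.23 in wildtype cells on the log2 scale, and was lower in Rb null than in wildtype cells after cisplatin (-1.11 ± 0.23) and without it (-0.93 ± 0.23). Kdr was not called in any comparison by limma. The ratio of 3′ to 5′ probes, a sign of RNA quality, moved with cisplatin as well. For Gapdh it was 0.798 to 0.881 with cisplatin in Rb null cells, against 0.759 to 0.776 without, and 0.782 to 0.866 with cisplatin in wildtype cells, against 0.781 to 0.80 without. For actin it was 1.19 to 1.32 with cisplatin in Rb null cells, against 1.10 to 1.23 without, and 1.20 to 1.25 with cisplatin in wildtype cells, against 1.12 to 1.17 without. In such bulk RNA, fewer cells of a type and less RNA per cell cannot be told apart, and the part of these shifts in the proteasome values was not tested.

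Signals are the deposited MAS5 intensities, which compare arrays but not one probe set with another. Of the probe sets tested, 1 stands for each of 7945 genes. Differences are log2 changes ± standard error from limma, fitted on log2(signal + 10.4) over 13575 probe sets, with n = 3 arrays per group throughout. This scale understates changes of weak genes. Adjusted p-values are Benjamini-Hochberg over all 13575 probe sets. A gene is said to have risen or fallen when its adjusted p was under 0.05 and the change was at least 1.5-fold. Only such genes are called. The adjusted p alone is counted beside this rule, because proteasome genes varied little between arrays of a group. Their median pooled standard deviation was 0.09 on the log2 scale (42 genes), against 0.13 for all 7945 genes.

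After cisplatin most proteasome genes had slightly higher signals, 31 of 42 in Rb null cells and 36 of 42 in wildtype cells. Of all 7945 genes, 3883 had higher signals in Rb null cells and 4398 in wildtype cells. In Rb null cells 3 genes rose and 1 fell: Psmb3 of the core beta ring, the ATPase Psmc1 and the ubiquitin receptor Psmd4 rose, and the activator Psme4 fell. In wildtype cells 4 genes rose and 0 fell: Psmb3, Psmc1, the ATPase Psmc3 and the chaperone Psmd9. None of these changes reached 2-fold. With the adjusted p alone, 21 genes were higher and 6 lower after cisplatin in Rb null cells, and 22 were higher and 2 lower in wildtype cells.

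These counts were read against all genes. In Rb null cells 16.6% of all genes rose and 20.3% fell, and with the adjusted p alone 31.3% were higher and 34.3% lower. In wildtype cells 14.8% rose and 12.7% fell, and with the adjusted p alone 32% were higher and 24.5% lower. The called proteasome genes were thus a smaller share than the background in both genotypes, and those higher at the adjusted p alone a larger one. The 95% interval of the change lay wholly within 1.5-fold in either direction for 32 of the 42 genes in Rb null cells, against 39.6% of all genes, and for 34 of the 42 in wildtype cells, against 48.5% of all genes. Taken without error, 38 of the 42 changed by less than 1.5-fold in each genotype, against 62.8% of all genes in Rb null cells and 72.3% in wildtype cells.

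**Figure D1:**
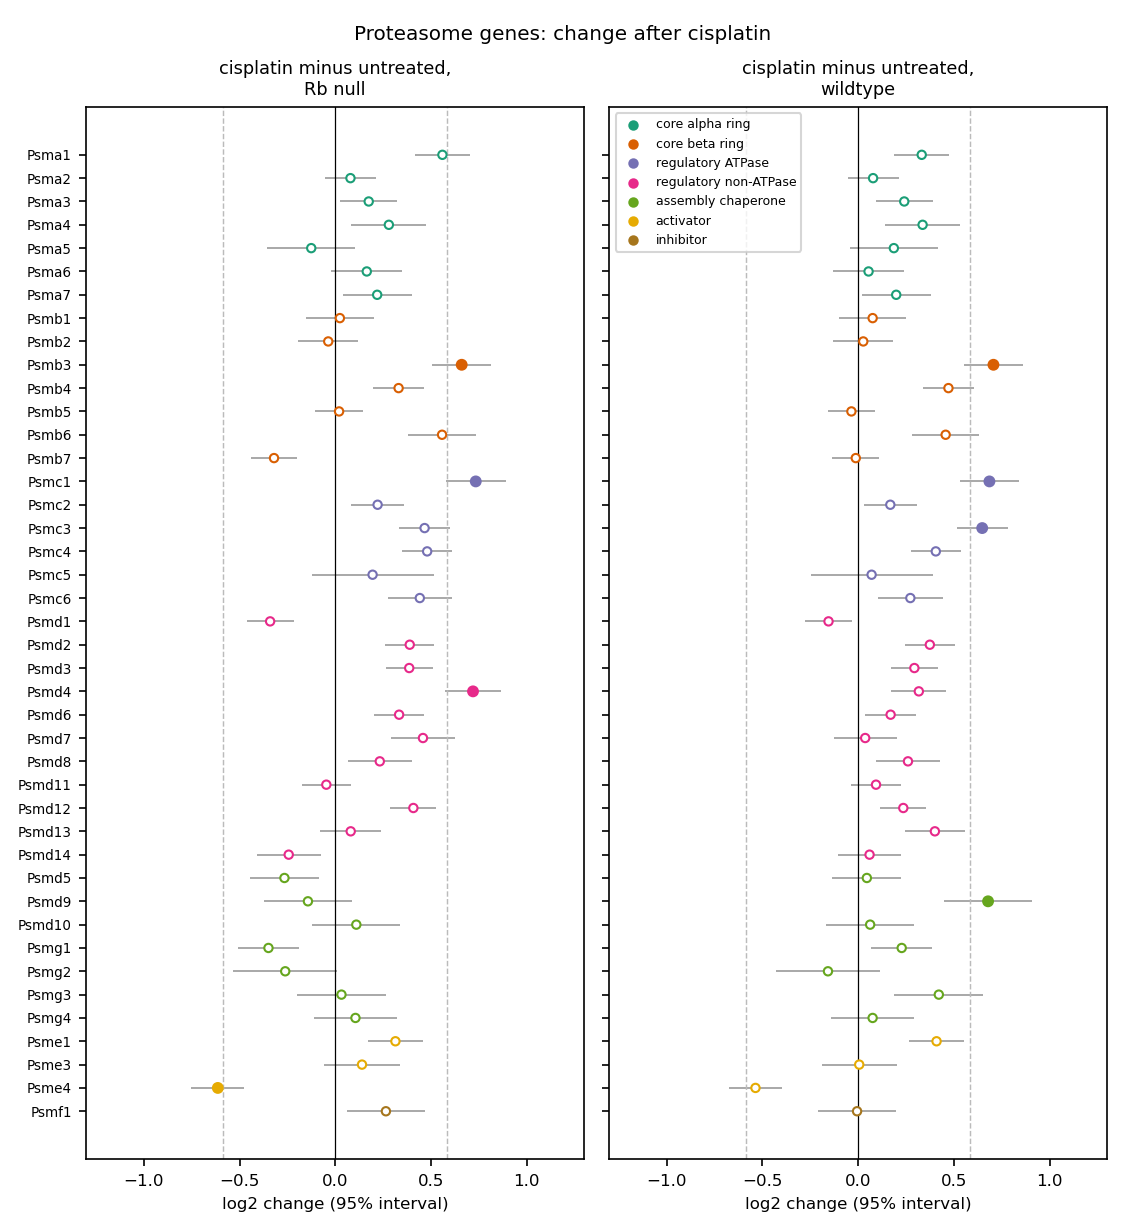
Log2 change after cisplatin for each of the 42 tested proteasome genes in Rb null cells (left) and wildtype cells (right), with 95% intervals from limma; filled points are called, dashed lines mark 1.5-fold, and colours give the subcomplex. Most points lie to the right of 0, at medians of 0.19 in both panels, and few pass a dashed line.

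The promoters of the called genes are printed here because these genes moved most, and the sequences allow the sites known for proteasome gene control to be looked up in them. The windows run from 250 bases before to 50 bases after the start of the gene in RefSeq, build GRCm38.p6, and a window was given for 35 of the 43 genes (37 windows). Psmc3 was without one. The letters searched, on both strands, were TGACNNNGC, the antioxidant response element bound by Nfe2l1 and Nfe2l2; CCAAT, the box bound by NF-Y; and TTTCCCGC and TTTGGCGC, forms of the E2F site; none of these motifs contains another. Psmb3 (chr11:97703184-97703483, + strand), Psmc1 (chr12:100109952-100110251, + strand) and Psmd4 (chr3:95042565-95042864, - strand) held CCAAT or its reverse complement, and those letters are in capitals.

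Psmb3: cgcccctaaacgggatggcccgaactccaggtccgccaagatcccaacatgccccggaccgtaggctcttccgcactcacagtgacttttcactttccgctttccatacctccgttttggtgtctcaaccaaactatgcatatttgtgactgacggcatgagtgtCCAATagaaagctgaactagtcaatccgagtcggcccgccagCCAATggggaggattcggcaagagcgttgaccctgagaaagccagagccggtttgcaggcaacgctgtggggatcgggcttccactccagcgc
Psmc1: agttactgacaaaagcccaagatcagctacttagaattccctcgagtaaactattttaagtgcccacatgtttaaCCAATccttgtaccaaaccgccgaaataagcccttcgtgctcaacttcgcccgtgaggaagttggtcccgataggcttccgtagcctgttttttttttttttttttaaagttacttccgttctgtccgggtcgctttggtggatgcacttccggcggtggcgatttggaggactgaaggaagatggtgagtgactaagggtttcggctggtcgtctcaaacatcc
Psmd4: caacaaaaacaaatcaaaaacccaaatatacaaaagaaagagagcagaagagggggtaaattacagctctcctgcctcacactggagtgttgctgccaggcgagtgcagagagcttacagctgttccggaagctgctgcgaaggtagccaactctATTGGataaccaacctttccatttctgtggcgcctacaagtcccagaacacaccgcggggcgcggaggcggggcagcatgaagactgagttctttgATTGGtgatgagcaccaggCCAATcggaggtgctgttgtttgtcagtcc

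Psmd9 (chr5:123227940-123228239, + strand) and Psme4 (chr11:30771525-30771824, + strand) held TGACNNNGC, in capitals. Among the probe sets that stand for the genes, Psmd9 had the cisplatin effect that differed most between genotypes, and Psme4 is the one that fell. Other probe sets of Psmd6 (-3.28) and Psma6 (1.03) differed more, and a second Psmd9 probe set had a difference of -0.08. In Psme4 the match is on the opposite strand.

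Psmd9: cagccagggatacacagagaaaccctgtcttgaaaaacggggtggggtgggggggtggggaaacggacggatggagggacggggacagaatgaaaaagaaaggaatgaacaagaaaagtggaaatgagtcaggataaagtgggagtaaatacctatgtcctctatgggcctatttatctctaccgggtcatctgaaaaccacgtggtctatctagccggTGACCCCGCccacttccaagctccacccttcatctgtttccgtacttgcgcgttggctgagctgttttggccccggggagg
Psme4: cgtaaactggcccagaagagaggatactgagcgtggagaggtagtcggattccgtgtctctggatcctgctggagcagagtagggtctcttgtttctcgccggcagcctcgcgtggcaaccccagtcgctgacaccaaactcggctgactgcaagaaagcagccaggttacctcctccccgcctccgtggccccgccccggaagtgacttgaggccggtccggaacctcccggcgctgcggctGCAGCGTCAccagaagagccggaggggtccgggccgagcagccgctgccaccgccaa

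TGACNNNGC was in 6 of the 37 proteasome windows (16.2%), those of Psmb5, Psmb6, Psmc6, Psmd9, Psmd12 and Psme4, against 12.4% of all 32851 promoter windows. CCAAT was in 12 windows (32.4%), against 37.4% of all. TTTCCCGC was in 2 windows, those of Psmc2 and Psmc4 (5.41%), against 1.07% of all, and TTTGGCGC was in 0 of the 37, against 0.514% of all. The genes with TGACNNNGC went both ways after cisplatin: in Rb null cells Psmb6 had a log2 change of 0.56 ± 0.08 and Psme4 of -0.61 ± 0.06. A match to letters is a description of the window and does not show that a factor is bound.

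In the core, Psmb3 had the largest change. Its signal was 3693.5, 3611.8 and 3307.8 in cisplatin-treated Rb null cells, against 2410.9, 2230.7 and 2066.4 in untreated Rb null cells. The wildtype values were 4066, 4417.5 and 4026.9 with cisplatin, against 2718.6, 2506.6 and 2429.9 without. All treated arrays were above all untreated ones in each genotype, and the log2 change was 0.66 ± 0.07 in Rb null cells (limma adjusted p = 1.54e-06) and 0.71 ± 0.07 in wildtype cells (limma adjusted p = 1.15e-06). A second Psmb3 probe set gave 0.70 and 0.34, so that the call in wildtype cells rests on the brighter one.

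The catalytic beta subunits did not move together. Psmb6, which carries the caspase-like site, had a log2 change of 0.56 ± 0.08 in Rb null cells and 0.46 ± 0.08 in wildtype cells, close to but under the 1.5-fold minimum (0.585 on this scale). Psmb5, the chymotrypsin-like subunit, stayed at 0.02 ± 0.06 and -0.04 ± 0.06. Psmb7, the trypsin-like subunit, had -0.32 ± 0.06 in Rb null cells (limma adjusted p = 1.81e-04) and -0.01 ± 0.06 in wildtype cells. Among the structural beta subunits, Psmb4 had 0.33 and 0.47, Psmb1 0.02 and 0.08, and Psmb2 -0.04 and 0.03, each given for Rb null and then wildtype cells.

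Of the alpha subunits, which form the outer rings, 0 of 7 was called in either genotype. Their median log2 change was 0.175 in Rb null cells and 0.199 in wildtype cells. That of the beta subunits was 0.024 and 0.076. Psma1 had the largest alpha change in Rb null cells. Its signal was 2889, 3088.1 and 2676.8 with cisplatin in Rb null cells, against 2080.8, 1836.3 and 1940.7 without. The log2 change of 0.56 ± 0.07 was the largest uncalled change of any proteasome gene in this comparison. Its wildtype signals were 2370.1, 2498.4 and 2386.9 with cisplatin and 1912.5, 1897.9 and 1946 without, a log2 change of 0.33 ± 0.07. Treated and untreated arrays did not overlap in either genotype. Psma2, Psma3, Psma4, Psma6 and Psma7 had log2 changes between 0.05 and 0.34 over both genotypes, and Psma5 had -0.13 in Rb null cells and 0.19 in wildtype cells.

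In the regulatory particle, all 6 ATPases had higher means after cisplatin in both genotypes, with a median log2 change of 0.45 in Rb null cells and 0.34 in wildtype cells. Psmc1 had signals of 2467.9, 2359.6 and 2276.6 with cisplatin in Rb null cells, against 1531.7, 1431 and 1302.5 without. Wildtype arrays gave 2245.4, 2328.8 and 2081.3 with cisplatin, against 1308.1, 1404.1 and 1411.7 without. The groups did not overlap, and the log2 change was 0.73 ± 0.07 in Rb null cells (limma adjusted p = 5.72e-07) and 0.69 ± 0.07 in wildtype cells (limma adjusted p = 1.78e-06), the largest of any proteasome gene in Rb null cells.

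Psmc3 was called in wildtype cells alone. Its signal was 3976.9, 4249.4 and 4246.3 with cisplatin in wildtype cells and 2643.9, 2753.8 and 2550.4 without, a log2 change of 0.65 ± 0.06 (limma adjusted p = 6.54e-07). In Rb null cells it was 3779.3, 3889.2 and 3907.4 with cisplatin and 2558.6, 2967.4 and 2856.2 without, a change of 0.47 ± 0.06. Treated arrays lay above untreated ones in both, and the effects in the 2 genotypes differed by -0.18 ± 0.09, which did not pass the test (limma adjusted p = 0.124). Psmc4 had 0.48 and 0.41, Psmc6 0.44 and 0.27, and Psmc2 0.22 and 0.17 in Rb null and wildtype cells. Psmc5 was too variable to place: its 3 arrays ran from 2304.8 to 3457.3 in cisplatin-treated Rb null cells, and its standard error was 0.15.

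Among the non-ATPase subunits only Psmd4, a ubiquitin receptor of the cap, was called. It had 4088.9, 4526.4 and 4115.9 with cisplatin in Rb null cells, against 2369.3, 2764.4 and 2591.3 without. Its wildtype values were 3687.1, 3761.1 and 3795.9 with cisplatin, against 3198.2, 2903.3 and 2927 without. The arrays did not overlap in either genotype, but the change was larger in Rb null cells: 0.72 ± 0.07 (limma adjusted p = 2.99e-07), against 0.32 ± 0.07 in wildtype cells (limma adjusted p = 0.00108). The difference of 0.40 ± 0.10 passed the adjusted p (0.00421 in limma) and not the 1.5-fold minimum. Over the probe sets of Psmd4 this difference ran from -0.67 to 0.40.

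The other non-ATPase subunits ran both ways. Psmd2, the largest scaffold together with Psmd1, had 0.39 in Rb null cells and 0.37 in wildtype cells, whereas Psmd1 had -0.34 and -0.15. Psmd3 had 0.39 and 0.29, Psmd12 0.41 and 0.24, Psmd6 0.33 and 0.17, and Psmd8 0.23 and 0.26. Psmd7 had 0.46 ± 0.08 in Rb null cells and 0.04 ± 0.08 in wildtype cells, and Psmd13 had 0.08 ± 0.07 and 0.40 ± 0.07. Psmd14, the subunit that cuts ubiquitin chains off the substrate and works as a pair with Psmd7, had -0.24 ± 0.08 in Rb null cells and 0.06 ± 0.08 in wildtype cells. Psmd11 stayed between -0.05 and 0.09.

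Core and regulatory particle were set side by side. The median log2 change after cisplatin in Rb null cells was 0.17 for the 14 core genes and 0.39 for the 17 regulatory particle genes, against -0.02 for all genes. In wildtype cells it was 0.19 for the core and 0.26 for the regulatory particle, against 0.06 for all genes. With the adjusted p alone 7 core genes were higher and 1 lower in Rb null cells, and 12 regulatory particle genes were higher and 2 lower. In wildtype cells 6 core genes were higher and 0 lower, and 12 regulatory particle genes were higher and 1 lower. Both parts had positive medians in both genotypes, below the 1.5-fold minimum. The gap between the parts depended on the summary and the probe sets. In Rb null cells the mean log2 change was 0.19 for the core, 0.42 for the ATPases and 0.22 for the non-ATPase subunits. In wildtype cells it was 0.22, 0.38 and 0.19 in the same order. With all probe sets counted, the gap between the medians in Rb null cells was smaller, as the closing section gives.

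The mean log2 signal of the core minus that of the regulatory particle can be compared between groups, though its level depends on the probes. It was 0.26 ± 0.01 on cisplatin-treated Rb null arrays, 0.33 ± 0.03 on cisplatin-treated wildtype arrays, 0.37 ± 0.02 on untreated Rb null arrays and 0.36 ± 0.02 on untreated wildtype arrays (SD, n = 3). In Rb null cells the treated arrays (0.26 to 0.27) did not overlap the untreated ones (0.35 to 0.38), and in wildtype cells they did (0.30 to 0.35, against 0.34 to 0.38). No test was made on these averages, which pool genes that differ among themselves.

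**Figure D2:**
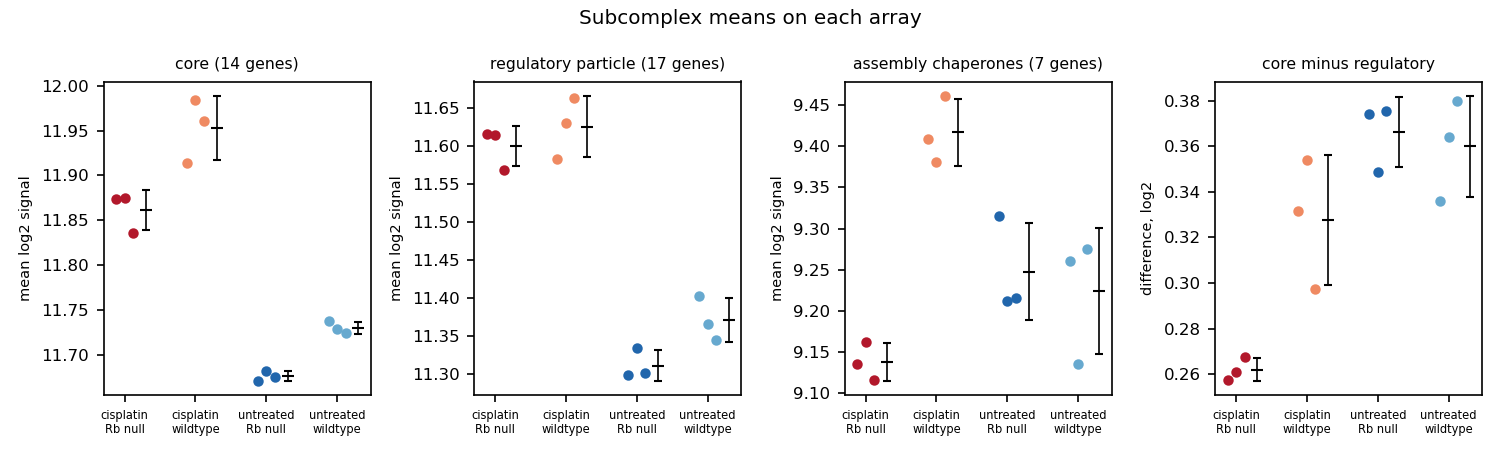
Mean log2(signal + 10.4) over the core genes, the regulatory particle genes and the assembly chaperones on each array, and the core mean minus the regulatory particle mean; points are arrays, bars are mean ± SD (n = 3), and the axes do not start at 0. Core and regulatory particle sit higher on the 6 cisplatin-treated arrays than on the 6 untreated arrays, and the chaperone mean is highest in cisplatin-treated wildtype cells.

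Median centring of the arrays moved these values upward with all other genes. Under it the median of all genes in Rb null cells was 0.13 after cisplatin, against -0.02 on the deposited scale, and the share of called genes that rose was 58%, against 44.9%. The medians became 0.32 for the core and 0.53 for the regulatory particle, and 9 proteasome genes rose and 0 fell, so that Psme4 was no longer called. Median centring shifts all genes of an array alike, so it could hardly change the gap between each part and all genes. Quantile normalization can change that gap. Under it the median of all genes in Rb null cells was 0.03, and the medians of both parts are in the closing section.

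The cisplatin effects in the 2 genotypes were correlated across genes. Across the 42 genes the 2 cisplatin effects, which share no arrays, had a Pearson r of 0.66 and a Spearman rho of 0.62, and 33 had the same sign. Across all 7945 genes the values were 0.71 and 0.66, with 5830 of the same sign. Genes are not independent replicates, and points share their arrays within a genotype, so these are descriptions.

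The assembly chaperones had a median log2 change after cisplatin of -0.14 in Rb null cells and 0.08 in wildtype cells. Psmd9, a chaperone of the ATPase ring, was the only proteasome gene whose cisplatin effect was called as different between genotypes. It had 563.4, 434.3 and 460.1 in cisplatin-treated Rb null cells, against 577.7, 508.4 and 518.9 in untreated Rb null cells. In wildtype cells it had 769.1, 668 and 779.3 with cisplatin, against 462.2, 422.6 and 487.3 without. Treated and untreated arrays overlapped in Rb null cells and were apart in wildtype cells, where their sex-linked transcripts differed as well.

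The log2 change of Psmd9 was -0.14 ± 0.11 in Rb null cells and 0.68 ± 0.11 in wildtype cells (limma adjusted p = 8.28e-05), and the effects differed by -0.82 ± 0.15 (limma adjusted p = 6.87e-04). A second, weaker Psmd9 probe set with signals between 85.7 and 159.5 gave -0.11 in wildtype cells and a difference of -0.08, so the call depends on the probe set.

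Psmg1, a chaperone of the alpha ring, had the largest uncalled difference. Its signal was 815.5, 762 and 748.3 in cisplatin-treated Rb null cells, against 968.3, 1038.4 and 963.4 in untreated Rb null cells. Wildtype arrays gave 940.7, 945.8 and 992.1 with cisplatin, against 882.7, 813.7 and 761.6 without. It was lower after cisplatin in Rb null cells and higher in wildtype cells, each without overlap, and the effects differed by -0.58 ± 0.11 (limma adjusted p = 6.98e-04), just short of 1.5-fold. It passed that minimum when any one of untreated Rb null array 1 or 3, untreated wildtype array 1, cisplatin-treated Rb null array a or cisplatin-treated wildtype array a or b was left out, at values from -0.63 to -0.59.

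Among the other chaperones, Psmd5 had -0.27 ± 0.08 in Rb null cells and 0.05 ± 0.08 in wildtype cells, Psmg3 had 0.03 ± 0.11 and 0.42 ± 0.11, and Psmg2 had -0.26 ± 0.13 and -0.16 ± 0.13. Psmg4 and Psmd10 lay between 0.06 and 0.11 in both.

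Over all proteasome genes, 0 had a called difference of cisplatin effects (Rb null minus wildtype) above 0 and 1 had one below 0, and with the adjusted p alone 2 lay above 0 and 5 below. The background was 8.7% and 15% of all genes for the called differences, and 15.2% and 24.1% for the adjusted p alone. The 2 above 0 were Psmd4 and Psmd7, both of the regulatory particle, and the 5 below 0 were Psmd9, Psmg1, Psmb7, Psmd13 and Psmd14. Other probe sets of Psmd4 and Psmd13 reversed the sign: they ran from -0.67 to 0.40 and from -0.32 to 0.25. The 95% interval of the difference lay within 1.5-fold for 36 of the 42 genes, against 36.8% of all genes. The medians were -0.05 for the core and 0.05 for the regulatory particle, against -0.07 for all genes.

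**Figure D3:**
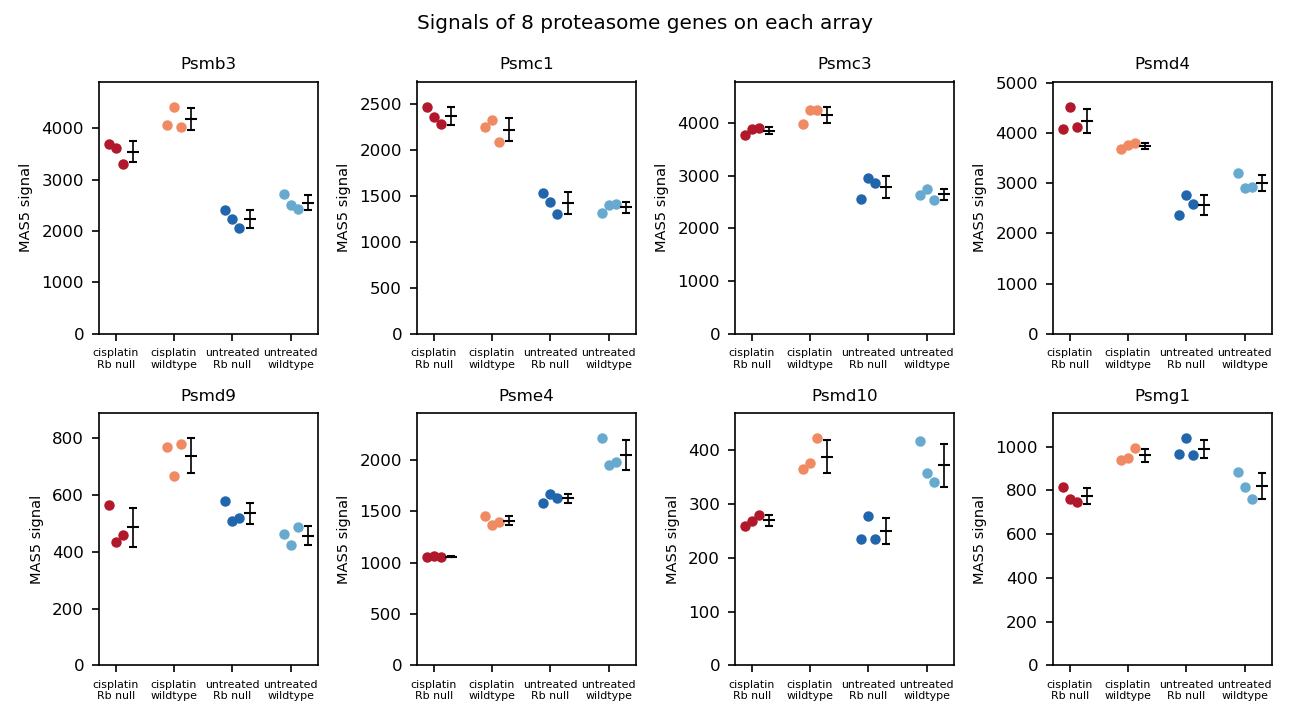
MAS5 signal of 8 proteasome genes on each of the 12 arrays, on axes that start at 0; points are arrays and bars are mean ± SD (n = 3). Psmb3, Psmc1, Psmc3 and Psmd4 are higher on all cisplatin-treated arrays than on the untreated arrays of either genotype, Psmd9 is highest in cisplatin-treated wildtype cells, Psme4 is lower with cisplatin and in Rb null cells, and Psmd10 is lower in Rb null cells.

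The activators split. Psme4, which caps the core and opens it without ubiquitin, had 1054.5, 1065.3 and 1056.9 in cisplatin-treated Rb null cells, against 1577.2, 1672.5 and 1628.1 in untreated Rb null cells. In wildtype cells it had 1454.2, 1369.2 and 1399 with cisplatin, against 2213.6, 1947.8 and 1984.8 without. All treated arrays were below all untreated ones. The log2 change was -0.61 ± 0.06 in Rb null cells (limma adjusted p = 1.12e-06), where it was called, and -0.54 ± 0.06 in wildtype cells, the largest uncalled change there. The effects differed by -0.08 ± 0.09 (limma adjusted p = 0.546).

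Psme1, a subunit of the activator that interferon induces, had 0.31 ± 0.07 in Rb null cells and 0.41 ± 0.07 in wildtype cells. Psme3, the nuclear activator, had 0.14 ± 0.09 and 0.01 ± 0.09. The inhibitor Psmf1 had 0.26 ± 0.09 and -0.01 ± 0.09.

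Without cisplatin, no proteasome gene differed past both thresholds between Rb null and wildtype cells in the probe set that stands for it, though a second probe set of the chaperone Psmg2 was called higher in Rb null cells (0.62 ± 0.12, limma adjusted p = 0.00136). Of the 42 genes, 0 were called higher and 0 lower in untreated Rb null cells than in untreated wildtype cells by limma, while 11 had an unadjusted p under 0.05, and 1 was higher and 4 were lower by the adjusted p alone. Among all genes 8.07% were called higher and 5.08% lower, and 18.7% and 16.8% with the adjusted p alone. An unadjusted p under 0.05 was found for 3500 of all 7945 genes. The 95% interval lay within 1.5-fold for 39 of the 42 genes, against 64.3% of all genes. The median difference was -0.05 for the core and -0.05 for the regulatory particle, against -0.01 for all genes.

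The 4 genes lower at the adjusted p alone were Psmd10, Psmd8, Psme4 and Psmd4, and the higher one was Psmg1. Psmd10, known as gankyrin, is an ATPase ring chaperone that also binds the retinoblastoma protein, and its gene is on the X chromosome. Its signal was 235.6, 278 and 235.1 in untreated Rb null cells, against 416.8, 357.5 and 341.1 in untreated wildtype cells. With cisplatin it was 259.9, 268.9 and 279.7 in Rb null cells, against 364.5, 377.3 and 422.5 in wildtype cells. All 6 Rb null arrays were below all 6 wildtype arrays.

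The log2 difference of Psmd10 was -0.56 ± 0.11 without cisplatin (limma adjusted p = 0.00102) and -0.51 ± 0.11 with it (limma adjusted p = 0.00119), in both the largest uncalled one. Xist was present in both of the cisplatin-treated groups, at a higher signal in Rb null cells. Without cisplatin the Psmd10 difference passed the 1.5-fold minimum under quantile normalization (-0.62) and median centring (-0.59). It also did when untreated Rb null array 2 (-0.63) or untreated wildtype array 3 (-0.61) was left out.

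Psmd8, a non-ATPase subunit of the lid, had 2856.3, 3144.7 and 3264 in untreated Rb null cells, against 4700, 4221.5 and 3859.1 in untreated wildtype cells. With cisplatin it had 3330, 3869.5 and 3697.8 in Rb null cells, against 5138.6, 4970.1 and 5156.7 in wildtype cells. The genotypes did not overlap under either condition, and the log2 differences were -0.46 ± 0.08 without and -0.49 ± 0.08 with cisplatin.

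**Figure D4:**
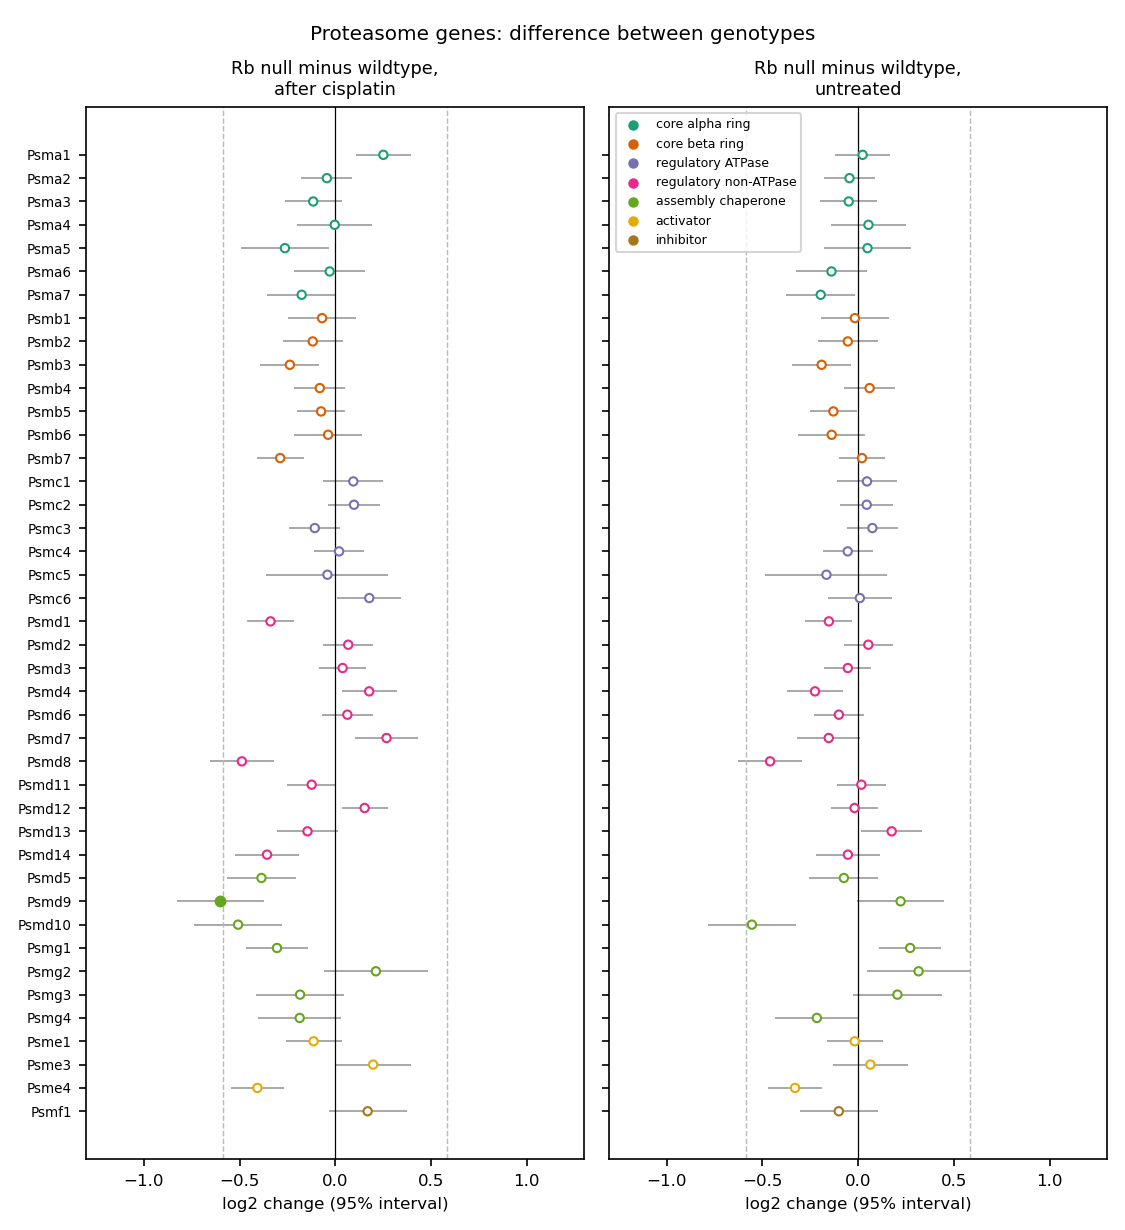
Log2 difference between Rb null and wildtype cells for each of the 42 tested proteasome genes after cisplatin (left) and without it (right), with 95% intervals from limma; the filled point is called, dashed lines mark 1.5-fold, and colours give the subcomplex. Psmd9 after cisplatin is the single called gene, and Psmd10 and Psmd8 lie left of 0 in both panels.

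After cisplatin, 0 proteasome genes were higher and 1 was lower in Rb null than in wildtype cells. The gene was Psmd9, with a log2 difference of -0.60 ± 0.11 (limma adjusted p = 3.10e-04), barely past the minimum. It was no longer called without cisplatin-treated Rb null array b (-0.52) or c (-0.57), or without cisplatin-treated wildtype array a (-0.57) or c (-0.56). The call was also lost with the larger pseudocount (-0.57), quantile normalization (-0.55) and median centring (-0.53), and the second Psmd9 probe set gave 0.049. With the adjusted p alone 4 genes were higher and 10 lower. Among all genes 9.67% were called higher and 13.3% lower, and 22.9% and 30.2% with the adjusted p alone. The 95% interval lay within 1.5-fold for 39 of the 42, against 51.3% of all genes.

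The core and the regulatory particle differed little between the treated genotypes, with medians of -0.08 and 0.04, against -0.05 for all genes. All 7 beta subunits had lower means in cisplatin-treated Rb null than in cisplatin-treated wildtype cells, from -0.29 for Psmb7 to -0.04 for Psmb6. The chaperones had a median of -0.30, with 6 of 7 lower in Rb null cells. Of all 7945 genes, 4354 were lower in that comparison. The 4 genes higher at the adjusted p alone were Psmd7 (0.27), Psma1 (0.25), Psmd4 (0.18) and Psmd12 (0.15).

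Of the 18 genes with more than 1 tested probe set, several were read differently by them. The probe sets of a gene had changes of opposite sign in 4 of the 18 for cisplatin in Rb null cells, among them Psmc6 (0.44 and -0.08), 6 for cisplatin in wildtype cells, among them Psmg2 (-0.16 and 0.20), 10 for the genotypes after cisplatin, 7 for the genotypes without it and 11 for the difference of effects. The largest disagreement was in Psmd6, a non-ATPase subunit. The brighter probe set, which stands for the gene above, had 3372.4 to 3826.1 with cisplatin in wildtype cells and 3186.7 to 3277.4 without. The other had 1683.6, 1536.2 and 1682.6 in cisplatin-treated wildtype cells and 111.4 to 192.2 on the 9 arrays of the other groups, a log2 change of 3.52 ± 0.15 in wildtype cells (limma adjusted p = 9.57e-11). In Rb null cells the same probe set had a log2 change of 0.24 and was not called.

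**Figure D5:**
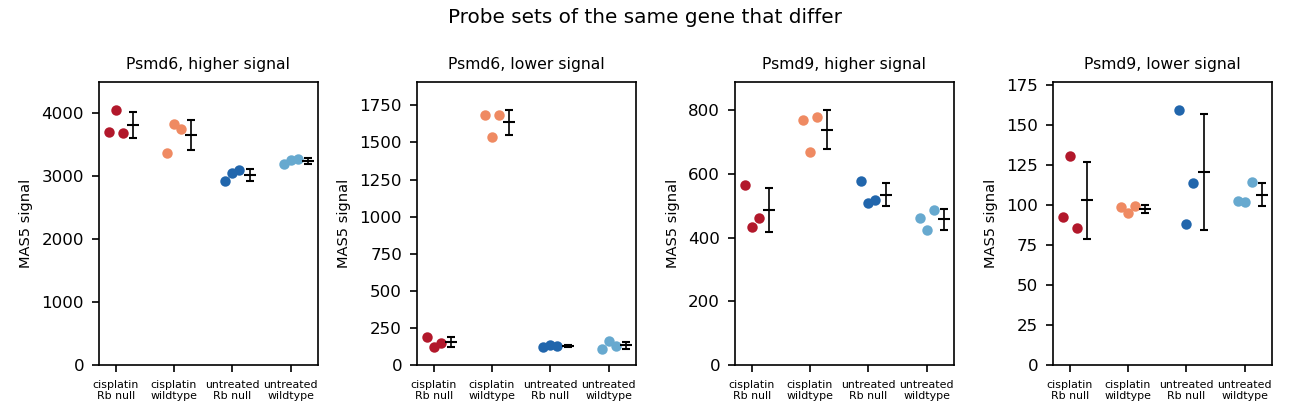
MAS5 signal on each array of the 2 probe sets of Psmd6 and the 2 tested probe sets of Psmd9, on axes that start at 0; points are arrays and bars are mean ± SD (n = 3). The weaker Psmd6 probe set is at 1536.2 to 1683.6 in cisplatin-treated wildtype cells and at most 192.2 on the other arrays, and the weaker Psmd9 probe set runs from 85.7 to 159.5 over all groups.

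In Rb null cells after cisplatin, 3 genes that were not called had another probe set that was called: Psmb1 (0.72), Psmc4 (0.72) and Psma6 (0.90). In wildtype cells there were 4: Psmd6, Psmc4 (0.88), Psmb4 (0.65) and Psmf1 (0.59). Psmd4 had 3 probe sets in Rb null cells, from -0.37 to 0.72, and 2 of them were called. Psme4 had a second probe set that fell by 0.61 in Rb null cells, as did the chosen one, and was lower in Rb null than in wildtype cells after cisplatin, with a log2 difference of -0.64.

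Genes around the proteasome were taken from lists by name, and the lists were chosen with earlier results of these data known. Of 6 tested regulators of proteasome genes and their processing, 1 rose and 1 fell after cisplatin in Rb null cells and 1 rose and 2 fell in wildtype cells. Of all genes, 16.6% rose and 20.3% fell in Rb null cells, and 14.8% rose and 12.7% fell in wildtype cells. Nfe2l2, the oxidative stress factor, had 2272.6, 2320.1 and 2281.1 with cisplatin in Rb null cells, against 1232.6, 1226.7 and 1237.3 without, a log2 change of 0.89 ± 0.06, and it rose by 0.98 ± 0.06 in wildtype cells. Nfe2l1 itself fell in wildtype cells, to 1186.3, 1076.5 and 1161.9 with cisplatin, against 2070.5, 1929.2 and 1900.8 without (-0.78 ± 0.08), and had -0.08 ± 0.08 in Rb null cells.

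The Nfe2l1 effects differed by 0.70 ± 0.11 between genotypes (limma adjusted p = 1.95e-04), and untreated Rb null cells had less of it than untreated wildtype cells (-0.60 ± 0.08). Ngly1, the glycanase that activates the Nfe2l1 protein, fell by 1.39 ± 0.12 in Rb null cells and by 0.71 ± 0.12 in wildtype cells, and was lower in Rb null than in wildtype cells after cisplatin (-0.95 ± 0.12). Its effects differed by -0.68 ± 0.17 (limma adjusted p = 0.00727). Vcp, Ufd1 and Nploc4, the segregase that hands proteins to the proteasome, stayed between -0.15 and 0.29. Ddi2, the protease that cuts Nfe2l1, was not analysed here.

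Of 13 tested proteasome partners, 1 rose and 3 fell after cisplatin in Rb null cells, and 1 rose and 0 fell in wildtype cells, beside the 16.6% and 20.3% of all genes in Rb null cells and the 14.8% and 12.7% in wildtype cells. Zfand5, an activator of the regulatory particle, had 3380.9, 3352.3 and 3496.3 with cisplatin in Rb null cells, against 1794.5, 1854.6 and 1824.7 without. It rose by 0.90 ± 0.06 there, and the effects differed by 0.76 ± 0.08 between genotypes. Ecpas, which tethers the proteasome to other compartments, fell by 0.97 ± 0.16 in Rb null cells, the ubiquitin ligase Ube3c by 0.95 ± 0.12, and Akirin2, which carries proteasomes into the nucleus, by 0.73 ± 0.08. The effects of these 3 differed between genotypes too, by -0.64 ± 0.23, -0.74 ± 0.17 and -0.70 ± 0.12.

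In wildtype cells Txnl1, a thioredoxin on the cap, rose by 0.65 ± 0.07. After cisplatin 3 partners were lower in Rb null than in wildtype cells, Akirin2 (-0.80), Ube3c (-0.72) and the ligase Ube3a (-0.62), beside 13.3% of all genes. Without cisplatin 0 of 13 was called by limma, with 4 at an unadjusted p under 0.05, beside 3500 of all 7945 genes. Pomp, which matures the core, had 0.35 and 0.06 after cisplatin in Rb null and wildtype cells. The deubiquitinase Usp14 had -0.40 in Rb null cells and 0.00 in wildtype cells, and Uchl5, another, had 0.15 and 0.44.

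Of 6 tested ubiquitin-conjugating enzymes, 0 were called after cisplatin in Rb null cells by limma. An unadjusted p under 0.05 was found there for 5 of them, beside 5408 of all 7945 genes. In wildtype cells 1 fell, Ube2d3 (-0.82 ± 0.09), beside 12.7% of all genes. Of the interferon-induced core subunits left out of the rule, Psmb8 had 180.7, 177.3 and 149.9 with cisplatin in Rb null cells, against 107, 111 and 117.7 without, and Psmb10 had 195.1, 209.4 and 189.1, against 340.9, 243.6 and 239.2. The log2 changes were 0.55 and -0.44, neither called, and in wildtype cells they were 0.14 and -0.29. Psmb9 was too weak to be tested.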

How the data were processed

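The authors deposited linear signal intensity values per probe set for 12 arrays, made with MAS5 per the labels' protocols, from 6 µg of RNA each. The MAS5 version and scaling target are not given in the sources used here, but all arrays had the same 2% trimmed mean, 500.1 to 500.2. Each group mean rests on 3 arrays, and the standard errors come from a spread pooled over all 4 groups. The 64 controls and the 40% of probe sets with the lowest mean were left out, which left 13575 probe sets. Names come from the platform annotation (20380 probe sets with 1 symbol, 691 with several, 1555 without an entry). Each gene is given by 1 probe set, those marked for cross-hybridization last, then the brightest. Group means were fitted with limma 3.58.1 in R 4.3.3 (eBayes with trend, 8 residual and 6.09 prior degrees of freedom) on log2(intensity + 10.4), where 10.4 is the 10th percentile. Tests are two-sided, and the script was tested on simulated data. Named with their values on each array are the called genes and, per comparison, the largest uncalled proteasome gene; from other lists up to 4 called genes. Groups follow the sample titles, with no replicate block, since arrays with the same label in different groups had deviations that correlated between -0.19 and 0.11. The genes, lists and tests were chosen with earlier results of these data known. Alternatives are given in the closing section. One of them, a fit without the untreated wildtype arrays, was chosen after seeing the data.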

Additional observations from a re-analysis of the deposited data

Results flagged for a closer look

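The effect of cisplatin was called by limma as different between genotypes in 3 of the 67 tested proteasome probe sets. Of all genes, 8.7% had a called difference above 0 and 15% had one below 0. The weaker Psmd6 probe set had a difference of -3.28 ± 0.21 on the log2 scale (limma adjusted p = 6.15e-08), with an effect of 0.24 in Rb null cells and 3.52 in wildtype cells, while the brighter Psmd6 probe set had a difference of 0.16. The brighter Psmd9 probe set had a difference of -0.82 ± 0.15 (limma adjusted p = 6.87e-04), with effects of -0.14 and 0.68. A Psma6 probe set whose suffix marks probes that may bind other transcripts had a difference of 1.03 ± 0.37 (limma adjusted p = 0.0413), with effects of 0.90 and -0.13, while the probe set that stands for Psma6 had 0.11.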

How the results depend on the processing

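Of the genes given with their values on each array, Psma1, Psmb3, Psmc1, Psmc3, Psmd4, Psmd9, Psmd10, Psme4 and Psmg1 were followed through the alternatives in the comparisons where they were called or were the largest uncalled. Their signs held there, except that Psmd9 turned with its second probe set, to 0.049 for Rb null against wildtype cells after cisplatin and to -0.11 for cisplatin in wildtype cells; the cause was not tested. Psmd4 was followed with its second probe set, while its remaining probe set had a log2 change of -0.37 for cisplatin in Rb null cells. Counts are given below as higher and lower, in the order Rb null against wildtype cells after cisplatin, the same without cisplatin, cisplatin in Rb null cells, cisplatin in wildtype cells, and the difference of the cisplatin effects, and were 0 and 1, 0 and 0, 3 and 1, 4 and 0, and 0 and 1 as reported. With a 2-fold minimum all were 0, by construction. With the adjusted p alone they were 4 and 10, 1 and 4, 21 and 6, 22 and 2, and 2 and 5. With all 67 tested probe sets counted, in place of 42 genes, they were 0 and 3, 1 and 0, 8 and 2, 8 and 0, and 1 and 2. With the second probe set they were 0 and 2, 1 and 0, 5 higher in Rb null cells, and otherwise within 1.5 times. Median centring gave 0 lower after cisplatin, 1 lower without it, and 9 and 0 in Rb null cells. Quantile normalization gave 0 lower after cisplatin and 1 lower without it, and the pseudocount at the 25th percentile (45.8) gave 0 lower after cisplatin.

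The medians moved most with scaling and probe set. Rb null against wildtype cells after cisplatin had core medians of -0.0093 under median centring and -0.15 under quantile normalization, and regulatory particle medians of 0.11, -0.0082, -0.022 (all probe sets) and -0.041 (second probe set). Without cisplatin the core had -0.081, -0.0064, -0.12 and -0.094 in the same order of settings, and the regulatory particle -0.087 and -0.016 under the 2 scalings. Cisplatin in Rb null cells gave 0.32, 0.10, 0.22 and 0.22 for the core, and 0.53, 0.29 and, with all probe sets, 0.25 for the regulatory particle. Cisplatin in wildtype cells gave 0.24 (median centring), 0.24 (all probe sets) and 0.25 (second probe set) for the core and 0.30 (median centring) for the regulatory particle. For the difference of effects the core had 0.053, -0.12, -0.01 and -0.0041, and the regulatory particle 0.15, 0.01, 0.0043 and -0.027.

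Leaving out 1 array at a time gave core medians of 0.10 to 0.19 for cisplatin in Rb null cells, 0.16 to 0.22 in wildtype cells, -0.062 to 0.0085 for the difference of effects and -0.070 to -0.019 for the genotypes without cisplatin. Regulatory particle medians were 0.21 to 0.28 for cisplatin in wildtype cells, 0.0051 to 0.087 for the difference of effects, 0.0078 to 0.051 for the genotypes after cisplatin and -0.056 to -0.022 without it. Counts of lower genes ran from 0 to 1 for the genotypes after cisplatin and also without it, and from 1 to 2 for the difference of effects. With the replicate block, possible only between genotypes, the counts were 0 and 1, 0 and 0, and 0 and 1, and Psmd9 after cisplatin stayed at -0.60, so it changed no call. Within a genotype no paired analysis was possible because treated and untreated arrays carry different labels. Pseudocount 1, no filter, a filter at 60%, no variance trend, only the 2 groups compared and a fit without untreated wildtype arrays changed none of these counts by over 1.5 times. Weak signals, such as those of the second Psmd9 probe set, limit what can be read.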
